A study of Saccharomyces cerevisiae with 5 samples.

Results

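RNA levels in a budding yeast strain without ARP5 were compared with those of its parent. Of the 5 strain columns in the deposited expression matrix, the 2 for arp5d and WT were compared, over 6192 of 6567 features. Those kept had a mean of 5 FPKM or more across the 5 strains (FPKM counts fragments per kilobase of feature, scaled to the number of mapped fragments). WT was BY4741, a haploid of mating type a with mutations in his3, leu2, met15 and ura3. The mutant arp5d (strain WYY0194) was BY4741 with LEU2 in place of ARP5, so that it lacked ARP5 and carried a LEU2 gene that WT lacked. The other 3 mutants, ies6d, ino80d and arp8d, carried LEU2 in place of IES6, INO80 and ARP8. All cultures were asynchronous, in mid-log growth at 30C on rich medium, and poly(A) RNA was sequenced. Each strain had 1 value per feature, in which 2 biological replicates were combined, so no replicate error could be given and nothing was tested. Differences are log2 ratios of FPKM + 1, arp5d minus WT, and are described by size alone. How many independently made deletion clones stood behind arp5d is not stated.

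Arp5 is an actin-related protein of the INO80 complex, a remodelling machine that uses ATP to slide nucleosomes and to act on nucleosomes that hold the histone variant H2A.Z. Ino80 is the motor subunit, Arp5 and Ies6 form a module that binds the motor and couples ATP use to sliding, and Arp8 belongs to a separate module with Arp4 and actin. The complex is found at many promoters and takes its name from genes of inositol synthesis, but in yeast it has also been tied to phosphate-regulated promoters, telomeres, replication forks and metabolic gene control.

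ARP5 (YNL059C, chromosome XIV) stood at 63.9 FPKM in WT and 0.0687 in arp5d. The other mutants had it at 58.1 in ies6d, 61.6 in ino80d and 61.99 in arp8d, so arp5d was the 1 strain without it. The genes beside it were at nearly the same level as in WT. Log2 ratios were -0.02 for GCD10 and -0.01 for NOP2 on one side, and 0.25 for YNL058C and 0.07 for OCA2 on the other. Among the 14 other INO80 subunit genes, IES2 (85.4 FPKM in WT, 139.9 in arp5d, log2 ratio 0.71) and NHP10 (113 and 179, 0.66) were at least 1.5-fold higher, and none was 1.5-fold lower. The motor gene INO80 stood at 25.7 and 34.1 FPKM, IES6 at 238 and 202, and ARP8 at 42.1 and 33.4. ARP4, shared with other chromatin complexes, stood at 108 and 75.98 FPKM (-0.51). The remaining subunit genes had log2 ratios between -0.13 for TAF14 and 0.29 for IES5, with ACT1 at -0.06, RVB2 at -0.05, RVB1 at -0.02, IES4 at 0.10, IES3 at 0.17 and IES1 at 0.26. Of 10 SWR1 complex genes, which encode the machine that puts H2A.Z into nucleosomes, YAF9 (64.5 and 112 FPKM) and VPS71 (43.6 and 69.5) were at least 1.5-fold higher and none was lower. That count too is to be read beside 13.3% higher and 10.9% lower over all features.

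The marker genes showed that arp5d and WT differed at more than ARP5. LEU2, an enzyme gene of leucine synthesis, stood at 0.0619 FPKM in WT and 113 in arp5d, and at 81.3 to 125 in the other mutants, as the labels give. LYS2, an enzyme gene of lysine synthesis, stood at 36.9 FPKM in WT but at 0.03897 in arp5d and 0.0138 in ino80d, against 25.01 in ies6d and 32.3 in arp8d. No label names a lys2 mutation, so the LYS2 level in arp5d goes against its label. MET17, the gene also called MET15, was near 0 in WT (0.482 FPKM), arp5d (0.2005) and ies6d (0.571), but stood at 807 in ino80d and 564 in arp8d, which goes against the met15 genotype of their parent. HIS3 was close in both (211 and 208 FPKM), with an allele in BY4741 that keeps part of the gene. URA3 was not analysed here. Any difference of arp5d from WT therefore comes with the loss of ARP5, the gain of LEU2 and the near absence of LYS2 RNA, which cannot be told apart with 1 strain a side.

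The median feature stood at 53.4 FPKM in WT and 53.6 in arp5d. The depth of the libraries is unknown. MFA1, which encodes the mating pheromone a-factor, held 6.01% of the sum in WT and 14.7% in arp5d. The library kit does not record strand, so that values of overlapping genes are uncertain (146 of 5383 long ORFs). The share of reads given to near-identical copies is unknown (175 long ORFs, found over whole gene spans, introns included). Long ORFs are annotated open reading frames of at least 300 bp, all above 0 in every strain. ORFs of chromosome I had a median log2 ratio of 0.13 and those of chromosome III 0.12, with the other chromosomes between -0.08 and 0.10. In ino80d the median of chromosome I against WT was 0.69, and in ies6d that of chromosome III was 0.35, which bears on where arp5d is set against those strains.

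At a size of 2-fold or more, 399 of the 6192 features were higher in arp5d (6.44%) and 223 were lower (3.6%). At 1.5-fold the counts were 825 higher (13.3%) and 677 lower (10.9%). Counts at 1.5-fold within the gene lists below are to be read beside these shares. The lists were chosen with earlier results of these data known. Some members were under 5 FPKM in WT and passed the filter through the mutants, among them SOL4, HXT7, PDC6, NDE2 and GPH1. This adds to the counts of higher members. Among the 5383 long ORFs, 266 were higher by 2-fold or more (4.94%) and 168 lower (3.12%), and at 4-fold 58 were higher (1.08%) and 26 lower (0.483%). Most long ORFs were close to WT, with a median log2 ratio of -0.03 and quartiles of -0.31 and 0.26. Just inside the filter lay GIP1, with a mean of 5.03 FPKM over the strains, and just outside it GAS4, with 4.996. Just inside the 2-fold line lay TOS3 and FIG1 on the higher side and URK1 and YMR122C on the lower. Just outside it lay RMA1 and PPZ2, and OPI3 and PHO4. In a culture measured as a whole, more cells with a transcript and more of it per cell cannot be told apart.

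**Figure D1:**
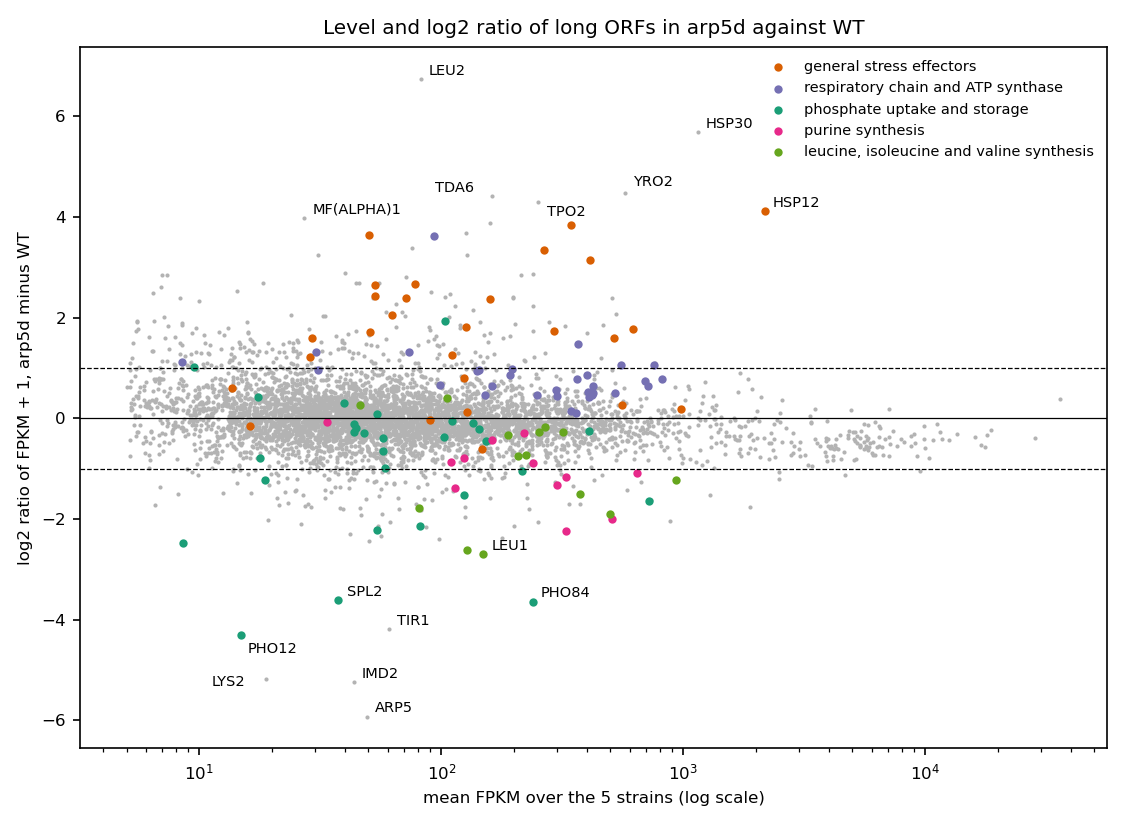
Each point is 1 long ORF, with the mean FPKM over the 5 strains on a log x axis and the log2 ratio of FPKM + 1, arp5d minus WT, on the y axis; coloured points are members of 5 gene groups and dashed lines mark 2-fold. Stress genes lie mostly above the line at 0, and genes of phosphate uptake, purines and branched-chain amino acids mostly below it, with LEU2 at 6.74 and ARP5 at -5.93 as the extremes.

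Among long ORFs after LEU2, several of the highest log2 ratios belonged to genes of the plasma membrane and of stress. HSP30, which encodes a plasma membrane protein that restrains the proton pump Pma1, stood at 29.8 FPKM in WT and 1582 in arp5d (log2 ratio 5.68). Its relative YRO2 stood at 28.9 and 669 (4.49), and TPO2, a polyamine exporter gene, at 17.5 and 365 (4.31). HSP30 was also high in ies6d (2117), ino80d (1009) and arp8d (989), so that WT alone was low. TDA6, which lies next to the exporter gene TPO3, stood at 9.23 and 217 FPKM (4.41). ETR1, a reductase gene of mitochondrial fatty acid synthesis, stood at 10.4 and 145 (3.67). HMX1, which encodes heme oxygenase, stood at 12.8 and 203 (3.89), and FMP48 at 5.54 and 67.7 (3.39).

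Over the list of 15 membrane stress and polyamine genes, 8 were at least 1.5-fold higher and none lower, with a median log2 ratio of 0.74 against -0.02 for all features. The list holds HSP30, YRO2 and TPO2 and was chosen with earlier results of these data known. Its count and median are therefore no independent support for a change of the group. The polyamine exporter genes were not alike. TPO3 (53.7 and 199.8 FPKM) and TPO4 (17.9 and 80.7) were higher with TPO2, but TPO1 was not (41.1 and 27.6, -0.56). TPO2 and TPO3 are near copies of each other. The proton pump gene PMA1 stood at 2204 and 2818 FPKM (0.35), and PDR12, an exporter of weak acids, at 18.1 and 37.6 (1.01). HAA1, a regulator of the weak acid response, stood at 57.5 and 82.05 FPKM (0.50), and WAR1, the activator of PDR12, at 19.6 and 22.2 (0.17).

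General stress effectors are genes that yeast switches on when growth slows or conditions turn harsh, through the activators Msn2 and Msn4. Of 32 such genes, 25 were at least 1.5-fold higher in arp5d, 22 of them at least 2-fold, and 1 was lower, with a median log2 ratio of 1.72. HSP12, a small membrane-protecting protein, stood at 93.1 FPKM in WT, 1638 in arp5d, 3477 in ies6d, 2584 in ino80d and 3040.1 in arp8d. WT was lowest, and arp5d was the lowest of the mutants. The log2 ratio of arp5d to WT was 4.12. The upstream region of HSP12 is shown because the gene had the highest ratio of the list and carries the stress response element AGGGG (capitals, either strand). The stretch runs from 300 to 101 bases before the start codon (sacCer3, chrVI:106956-107155, plus strand) and overlaps the annotated ORF YFL015C:
HSP12: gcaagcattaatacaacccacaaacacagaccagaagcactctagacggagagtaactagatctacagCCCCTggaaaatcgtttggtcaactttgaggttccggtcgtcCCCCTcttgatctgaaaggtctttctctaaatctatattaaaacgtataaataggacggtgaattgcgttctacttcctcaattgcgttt
Both matches read CCCCT on this strand, 232 to 228 and 190 to 186 bases before the start codon.

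Other stress effectors were below HSP12 in ratio but also higher than in WT. RTC3 stood at 25.7 and 384 FPKM (3.85), STF2, a stabiliser of the ATP synthase inhibitor complex, at 301 and 3802 (3.66), and SOL4, an enzyme gene of the pentose phosphate pathway, at 3.94 and 60.5 (3.64). DDR2 stood at 99.1 and 1039 FPKM (3.38), HXK1, the gene of hexokinase 1, at 29.5 and 309.7 (3.35), and SPI1, a cell wall protein gene, at 46.4 and 421 (3.15). The catalase gene CTT1 was higher as well, at 9.12 and 53.3 FPKM (2.42). DDR48 alone of the list was at least 1.5-fold lower, at 213 and 139.99 FPKM (-0.60). Of the regulators, MSN4 stood at 30.9 FPKM in WT and 94.2 in arp5d (1.58), while MSN2 stood at 48.1 and 40.7 (-0.24). RIM15, a kinase that acts on entry into quiescence, stood at 9.48 and 17.1 FPKM (0.78). A further 11 of the 15 stress regulators had log2 ratios from -0.48 for HOG1 to 0.58 for GIS1, with RAS2 at -0.21, SCH9 at -0.19, PDE2 at -0.13, SKN7 at -0.07, TPK3 at 0.12, HSF1 at 0.13, YAP1 at 0.14, BCY1 at 0.15 and TPK2 at 0.27.

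Heat shock chaperones as a list were close to WT. Of 25, 4 were at least 1.5-fold higher and 1 lower, with a median of 0.01, beside 13.3% higher and 10.9% lower over all features. SSA4 (23.7 and 130.1 FPKM), HSP104 (64.9 and 310.3), HSP42 (39.02 and 176) and SSE2 (13.1 and 29.05) were the higher ones, and all are known to be stress-induced. The constitutive or more abundant forms were near WT or below it: HSC82 stood at 1305 and 1040.2 FPKM (-0.33), SSA2 at 827 and 595 (-0.48) and HSP60 at 350.4 and 285 (-0.30). CPR6, a cochaperone of Hsp90, was the lower one (250.4 and 151 FPKM, -0.73).

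The element AGGGG was found, on either strand, in the 300 bases before the start codon of 22.2% of all 5383 long ORFs. It was found in 39.8% of the 266 that were at least 2-fold higher, in 18.5% of the 168 that were at least 2-fold lower, and in 20.6% of the 4206 less than 1.5-fold apart. Among general stress effectors that are long ORFs, 21 of 27 carried it (77.8%). Of the 12 membrane stress genes scanned, 1 did (8.33%). A match describes the sequence and does not show a bound site.

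Storage carbohydrate genes were higher with the stress genes, and several belong to both groups. Of 7 trehalose genes, 5 were at least 1.5-fold higher and none lower (median 0.93). TSL1, a subunit of the trehalose synthase complex, stood at 9.56 and 65.3 FPKM (2.65), TPS2 at 34.6 and 127 (1.85) and TPS1 at 109 and 253 (1.21). The trehalase gene NTH1, which encodes the breakdown enzyme, stood at 43.5 and 84.2 (0.93), so that genes of both directions were higher. Of 13 glycogen genes, 9 were at least 1.5-fold higher and 1 lower (median 0.79). The phosphorylase gene GPH1 stood at 4.997 and 43.1 FPKM (2.88), and the synthase genes GSY2 at 22.5 and 129.8 (2.47) and GSY1 at 8.21 and 36.8 (2.04). The 2 phosphoglucomutase genes went opposite ways: PGM2 stood at 14.7 and 48.7 FPKM (1.66), and PGM1 at 153 and 83.5 (-0.87).

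A like split between isozymes was seen in the pentose phosphate pathway, with a median of -0.06 over 13 genes. SOL4 and GND2 were under 5 FPKM in WT and passed the filter through the mutants, in which they were higher, so no count is given. SOL4, the transaldolase paralogue NQM1 (8.39 and 48.6 FPKM, 2.40), the transketolase TKL2 (8.07 and 22.9, 1.39) and GND2 (4.05 and 8.82, 0.96) were higher. Their main counterparts were not: TAL1 stood at 1002 and 642 FPKM (-0.64), TKL1 at 659.8 and 514 (-0.36) and GND1 at 648 and 623 (-0.06). The first enzyme of the pathway, ZWF1, stood at 126 and 93.5 FPKM (-0.43). TKL2 was also above WT in ino80d (19.02 FPKM), but near it in ies6d (9.41) and arp8d (8.64). It was thus highest in arp5d and ino80d, the strains with almost no LYS2 RNA. TKL2 lies close to LYS2 on chromosome II (474392 to 476437, with LYS2 at 469748 to 473926). Whether its value goes with LYS2 or with ARP5 was not tested.

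Genes of mitochondrial respiration had ratios above 0 throughout. Yeast on glucose ferments and keeps these genes low, and the Hap2/3/4/5 activator raises them when respiration is needed. All 46 kept genes of succinate dehydrogenase, the NADH dehydrogenases, the bc1 complex, cytochrome c, cytochrome c oxidase and ATP synthase had log2 ratios above 0, with 28 at least 1.5-fold higher, none lower and a median of 0.70. Over all 6192 features, 2973 had log2 ratios above 0, and 13.3% were at least 1.5-fold higher.

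By complex, all 7 genes of succinate dehydrogenase and the NADH dehydrogenases were at least 1.5-fold higher (median 0.95). SDH2 stood at 76.1 and 148 FPKM, NDI1 at 34.6 and 87.6 and NDE1 at 150.5 and 423 (1.49). In the bc1 complex and cytochrome c, 8 of 12 were higher (median 0.70). The subunit gene QCR9 stood at 893 and 1956 FPKM (1.13), the catalytic subunit gene RIP1 at 82.1 and 159 (0.94), and CYB2, lactate cytochrome c reductase, at 12.5 and 32.8 (1.32). The cytochrome c isoforms differed in their ratios. CYC1, the main form with oxygen, stood at 263 and 282 FPKM (0.10), and CYC7, the form of hypoxia and stress, at 5.85 and 83.9 (3.63). CYC7 stood at 189 in ies6d, 84.04 in ino80d and 103 in arp8d, so that arp5d was at the low end of the mutants.

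Of 10 cytochrome c oxidase genes, 6 were at least 1.5-fold higher (median 0.77). COX26 stood at 76.9 and 439 FPKM (2.50), COX13 at 408 and 845 (1.05) and COX12 at 523 and 1034 (0.98). The subunit 5 isoforms were both slightly higher, COX5A at 293 and 456 FPKM (0.64) and the hypoxic form COX5B at 100.4 and 138 (0.45). ATP synthase had 7 of 17 genes higher (median 0.53), led by regulators of the enzyme and not by its core. STF2 and the inhibitor gene INH1 (128 and 439 FPKM, 1.77) came first, while the catalytic subunit genes ATP1 (213 and 317, 0.57) and ATP2 (399 and 565, 0.50) had smaller ratios.

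Of 13 kept genes of respiratory and heme control, 4 were at least 1.5-fold higher (HAP4, HAP2, ADR1 and HMX1) and none lower. HAP4 stood at 41.1 FPKM in WT, 221 in arp5d, 280.4 in ies6d, 169.8 in ino80d and 276 in arp8d. It encodes the glucose-controlled activating subunit of the Hap complex, and WT was lowest (log2 ratio of arp5d 2.40). Of the DNA-binding subunits, HAP2 stood at 33.9 and 62.7 FPKM (0.87), HAP3 at 103 and 111 (0.10) and HAP5 at 53.3 and 62.8 (0.23). ADR1, an activator of genes for ethanol and fatty acid use, stood at 8.21 and 25.01 FPKM. HAP1 (-0.16), RTG1 (-0.24), RTG3 (-0.33), SNF1 (-0.17), MIG1 (0.18), ROX1 (0.28) and the heme synthesis gene HEM1 (-0.07) were all less than 1.5-fold from WT, and CAT8, at 2.83 and 3.08 FPKM, was under the filter. The Hap box CCAAT was present in 42.5% of all windows, in 10 of 10 long ATP synthase ORFs and in 5 of 9 of the bc1 complex and cytochrome c. It was in 45.9% of the 266 long ORFs at least 2-fold higher, near the share of all windows, and in 34.5% of the 168 at least 2-fold lower.

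The TCA cycle was less uniform. Of 19 genes, 3 were at least 1.5-fold higher and 2 lower, beside 13.3% higher and 10.9% lower over all features. The median was 0.25. CIT1, the mitochondrial citrate synthase gene at the entry of the cycle, stood at 65.1 and 189 FPKM (1.52), LSC2 at 81.7 and 163 (0.98) and ACO1 at 148 and 233 (0.65). MAE1, malic enzyme, stood at 325 and 82.7 FPKM (-1.96). Mitochondrial ribosomal protein genes had a median of 0.08, with 3 of 67 higher and 2 lower, so that the higher respiratory genes were not matched by the organelle's ribosome genes in size.

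**Figure D2:**
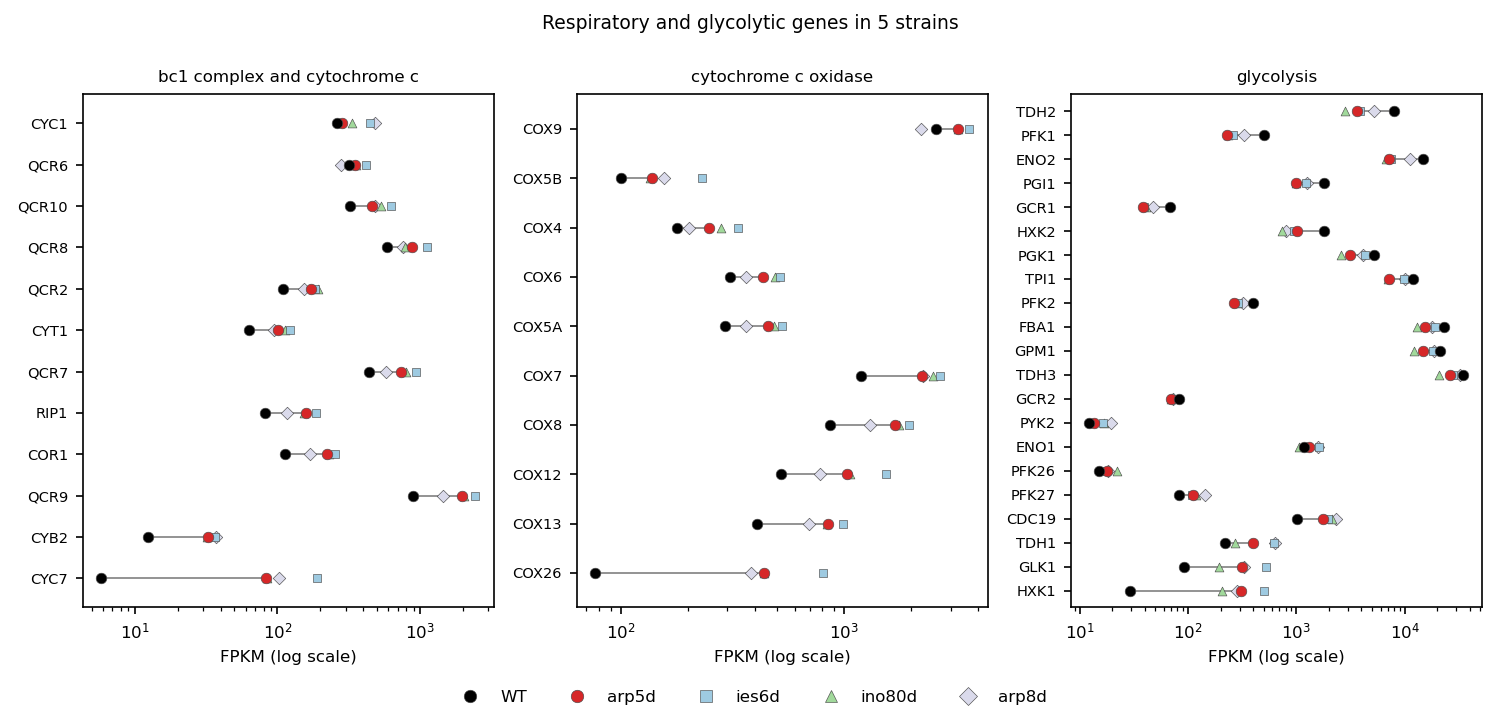
FPKM on a log x axis in the 5 strains for genes of the bc1 complex and cytochrome c, cytochrome c oxidase and glycolysis, with WT in black, arp5d in red, the other mutants in pale symbols and a line from WT to arp5d. In the left and middle panels each red point lies to the right of the black point (CYC7 at 5.85 and 83.9), while most abundant glycolytic genes have it to the left (TDH2 at 7909 and 3607).

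Glycolytic genes were divided. Of 21 genes, 9 were at least 1.5-fold lower and 4 higher, with a median of -0.53. Phosphofructokinase PFK1 stood at 499 FPKM in WT and 231 in arp5d (-1.11), PGI1 at 1790.1 and 998 (-0.84) and HXK2, the main hexokinase on glucose, at 1788 and 1019.9 (-0.81). TDH2 stood at 7909 and 3607 (-1.13) and ENO2 at 14860.3 and 7230.2 (-1.04), and both have near copies in TDH3 and ENO1. GCR1, the activator of glycolytic genes, stood at 68.4 and 38.3 FPKM (-0.82), and its partner GCR2 at 82.9 and 69.6 (-0.25). Against the median, HXK1, GLK1 (93.02 and 313, 1.74), TDH1 (219.6 and 398, 0.86) and CDC19, the gene of the main pyruvate kinase, (1024 and 1760.3, 0.78) were higher. HXK1 and GLK1 phosphorylate glucose as HXK2 does. CDC19 lies on chromosome I, whose ORFs had a median of 0.13.

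Fermentation and acetate genes were also divided, with 6 of 15 higher and 6 lower (median -0.04). PDC1, the main pyruvate decarboxylase gene, stood at 6625 and 3803 FPKM (-0.80), and ADH1, which makes ethanol, at 14565 and 8377 (-0.80). ADH2, which uses ethanol, stood at 28.8 and 71.4 FPKM (1.28), and PDC6 at 0.719 and 8.01 (2.39). The aldehyde dehydrogenases ALD4 (28.4 and 102 FPKM, 1.81) and ALD5 (229 and 50.8, -2.15) are both mitochondrial and lay on opposite sides. ACS1, the acetyl-CoA synthetase of respiring cells, stood at 9.28 and 17.997 FPKM (0.89), and ACS2, that of fermenting cells, at 255 and 143 (-0.83). Gluconeogenesis and glyoxylate genes were low in both strains: FBP1 stood at 10.9 and 17.6 FPKM (0.64), PCK1 at 8.93 and 13.5 (0.54) and ICL1 at 33.9 and 28.8 (-0.23). In that list 5 of 13 were higher and 1, the acetate transporter gene ATO3 (207 and 94.3, -1.12), was lower.

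Of 13 kept hexose transport genes, 2 were at least 1.5-fold higher and 1 lower (median 0.11), beside 13.3% higher and 10.9% lower over all features. HXT7 stood at 2.71 and 34.3 FPKM (3.25, near copy of HXT6), and HXT4 at 42.2 and 104 (1.28), both high-affinity carriers. HXT7 was under 5 FPKM in WT and passed the filter through the mutants. HXT1, a low-affinity carrier, stood at 257 and 161 (-0.68), and HXT3, another, at 1301 and 1332 (0.03). The glucose sensor genes SNF3 (11.7 and 17.1 FPKM) and RGT2 (19.4 and 16.9) were less than 1.5-fold from WT.

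Cytoplasmic ribosomal protein genes had ratios below 0 throughout, most of them small. None of the 56 small subunit or 80 large subunit genes had a log2 ratio above 0, against 2973 of all 6192 features. At least 1.5-fold lower were 20 and 27, with medians of -0.49 and -0.48. RPL7B, which overlaps SNR59, stood at 465 and 89.01 FPKM (-2.37), RPS8A at 2340.5 and 569.6 (-2.04), RPS9A at 812 and 249.6 (-1.70) and RPL8A at 2605 and 899.9 (-1.53). A near-identical copy was found for 24 and 30 of them, RPS8A, RPS9A and RPL8A among these. The search used whole gene spans with introns, so copies of genes with introns can be missed. That none was found for RPL7B does not show that it has none. Genes that build the ribosome were nearer to WT: of 39, 1 was lower (UTP15, 121 and 77.4 FPKM, -0.63) and none higher (median -0.12), and of 19 RNA polymerase I and III genes none passed 1.5-fold either way (-0.12). All 32 proteasome genes were also less than 1.5-fold from WT (0.03). Over the 211 long ORFs with a mean of at least 1000 FPKM the median log2 ratio was -0.41. The part of level, or of the larger share held by MFA1, in the lower ribosomal and glycolytic values was not tested.

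Phosphate genes were 4 of the 15 lowest long ORFs. Yeast short of phosphate lets Pho4, with Pho2, switch on transporters, secreted acid phosphatases and polyphosphate synthesis, and with phosphate at hand the Pho80-Pho85 kinase keeps Pho4 out of the nucleus. Of 29 kept genes in 4 phosphate lists, 13 were at least 1.5-fold lower in arp5d and 2 higher, with a median of -0.40. The share of lower features overall was 10.9%.

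Among transporters, PHO84, the high-affinity phosphate carrier, stood at 897 FPKM in WT, 70.9 in arp5d, 48.3 in ies6d, 46.4 in ino80d and 130.2 in arp8d. WT was far above all 4 mutants, and the log2 ratio of arp5d was -3.64. PHO84 overlaps the antisense RNA gene YNCM0001W, and reads of the 2 cannot be told apart without strand. PHO89, the sodium-coupled carrier, stood at 28.9 and 4.403 FPKM (-2.47). The low-affinity carriers were near WT: PHO87 at 51.1 and 44.3 FPKM (-0.20), PHO90 at 70.8 and 53.5 (-0.40) and PHO91 at 51.1 and 42.2 (-0.27). GIT1, which takes up glycerophosphoinositol, was higher (5.85 and 12.9, 1.02).

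Among phosphatases, PHO12 stood at 62.7 FPKM in WT, 2.23 in arp5d, 3.04 in ies6d, 1.12 in ino80d and 5.34 in arp8d. WT alone was high, with a log2 ratio of arp5d of -4.30. Its near copy PHO11 stood at 15.2 and 2.43 FPKM, under the filter over 5 strains, and how reads were divided between the 2 is unknown. PHO5, the main secreted acid phosphatase, stood at 147 and 30.8 FPKM (-2.22), whereas PHO3, its neighbour that does not respond to phosphate, stood at 477 and 401 (-0.25). PHM8, which is also a gene of starvation, was higher (30.4 and 119, 1.94). The region 300 to 101 bases before the start codon of PHO12 (sacCer3, chrVIII:551799-551998, plus strand) is shown because PHO12 was the lowest phosphate gene and holds the Pho4 site CACGTG (capitals):
PHO12: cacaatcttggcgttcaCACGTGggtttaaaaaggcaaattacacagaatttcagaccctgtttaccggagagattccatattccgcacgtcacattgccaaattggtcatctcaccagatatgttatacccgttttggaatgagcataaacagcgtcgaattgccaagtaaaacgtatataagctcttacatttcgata
The match lies 283 to 278 bases before the start codon. CACGTG reads the same on both strands and was present in 11 of 29 phosphate genes (37.9%), against 3.57% of all 5383 windows.

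All 5 genes of the polyphosphate polymerase of the vacuole were at least 1.5-fold lower (median -1.53). VTC3 stood at 219 and 48.6 FPKM (-2.15), VTC1 at 1594 and 512 (-1.64), VTC4, the catalytic subunit, at 273 and 93.9 (-1.53), VTC5 at 33.9 and 13.9 (-1.23) and VTC2 at 84.2 and 53.3 (-0.65). Among signalling genes, SPL2, which restrains low-affinity uptake, stood at 147 and 11.2 FPKM (-3.60). PHO86, needed for Pho84 to leave the endoplasmic reticulum, stood at 389 and 187 (-1.06), the activator PHO4 at 92.9 and 46.03 and the kinase inhibitor PHO81 at 27.5 and 15.4 (-0.80). The kinase PHO85 (-0.09), its cyclin PHO80 (0.08), the coactivator PHO2 (0.30), the inositol phosphate kinases KCS1 (-0.12) and VIP1 (-0.29) and GDE1 (0.42) were less than 1.5-fold from WT, and PHO92 was under the filter (0.481 and 1.51 FPKM). PHO84, PHO5, PHO12, SPL2 and the VTC genes, all known targets of Pho4, were thus lower, as was PHO4, while PHM8 and GIT1 were higher and the genes of the kinase that controls Pho4 were near WT.

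**Figure D3:**
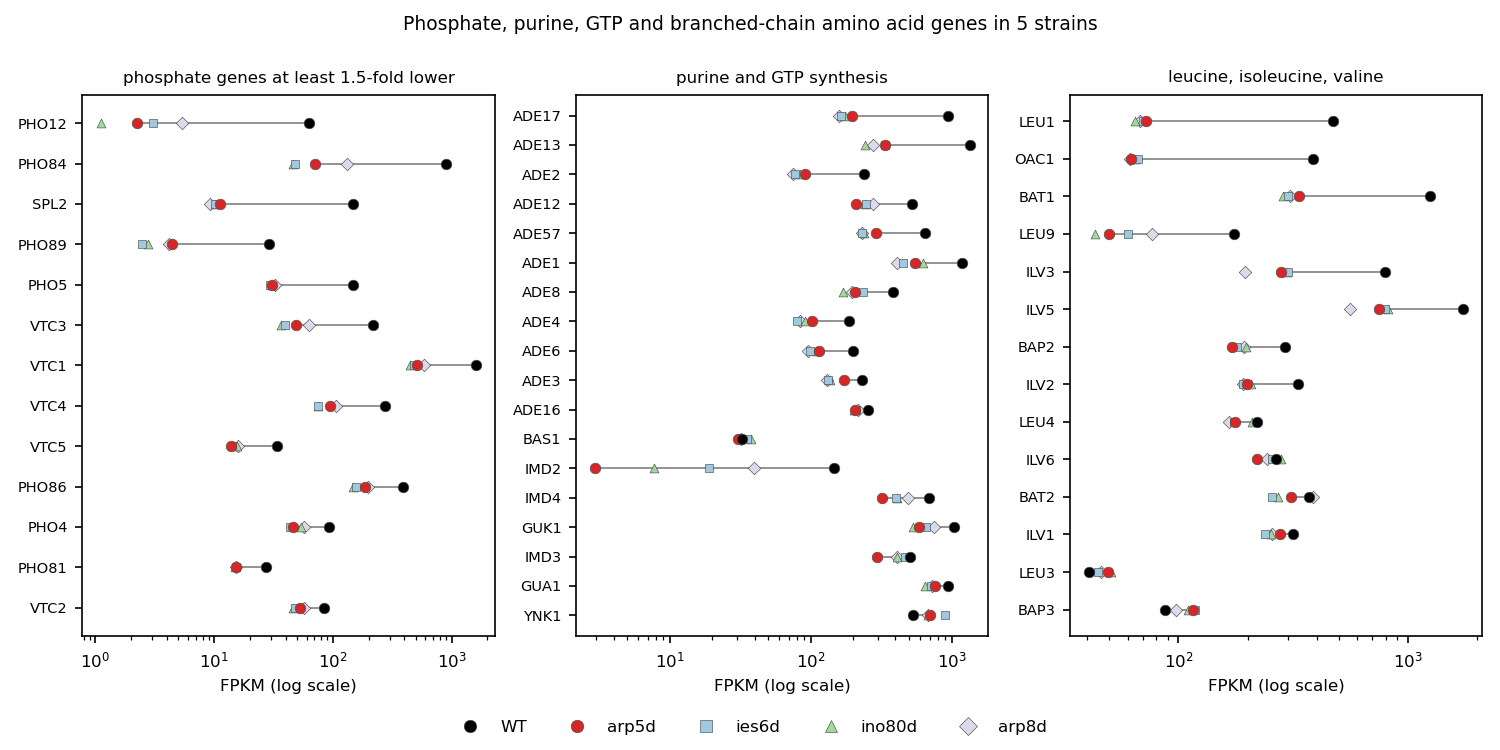
FPKM on a log x axis in the 5 strains for phosphate genes at least 1.5-fold lower in arp5d (chosen by that ratio), for purine and GTP synthesis and for leucine, isoleucine and valine synthesis, with symbols as in the plot of respiratory and glycolytic genes. WT (black) lies to the right of arp5d (red) in all but YNK1, LEU3 and BAP3, and IMD2 spreads from 2.94 in arp5d to 148 in WT.

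IMD2, which encodes an IMP dehydrogenase of GTP synthesis and is induced when GTP is short, lies next to PHO12 near the right end of chromosome VIII. It stood at 148 FPKM in WT, 39.9 in arp8d, 19.02 in ies6d, 7.77 in ino80d and 2.94 in arp5d. Every mutant was below WT, and arp5d was lowest of all, with a log2 ratio to WT of -5.24 and a log2 difference to the next lowest strain, ino80d, of -1.15. The other IMP dehydrogenases were lower to a lesser degree, IMD4 at 697 and 319 FPKM (-1.12, overlaps SNR54) and IMD3 at 507 and 294 (-0.79). IMD3 too was lowest in arp5d, with 409.7 to 467 in the other mutants. Further along the route, GUA1 stood at 948 and 759 FPKM (-0.32), the guanylate kinase GUK1 at 1042 and 589.6 (-0.82) and the nucleoside diphosphate kinase YNK1 at 535 and 704 (0.39).

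The synthesis of purines from simple precursors, activated by Bas1 with Pho2, was lower at most steps. The median of 12 genes was -0.99, with 9 lower by 1.5-fold or more and none higher. ADE17, an enzyme of the last steps to IMP, stood at 939 FPKM in WT, 198 in arp5d, 164 in ies6d, 176 in ino80d and 159.6 in arp8d. WT was high and arp5d was the highest of the mutants (log2 ratio -2.24). Its isozyme ADE16, in contrast, stood at 256 and 208 (-0.30). ADE13 stood at 1342 and 336 FPKM (-1.99), ADE2 at 240.3 and 90.7 (-1.40), ADE12, which leads to AMP, at 523 and 209 (-1.32) and ADE57 (the gene ADE5,7) at 649 and 289 (-1.16). The activator gene BAS1 stood at 32.6 and 30.7 FPKM (-0.08). The region 300 to 101 bases before the start codon of ADE17 (sacCer3, chrXIII:509381-509580, minus strand, written 5′ to 3′ on the strand of the gene) is shown because ADE17 was the lowest of the pathway and holds TGACTC, the core of Bas1 and Gcn4 sites (capitals):
ADE17: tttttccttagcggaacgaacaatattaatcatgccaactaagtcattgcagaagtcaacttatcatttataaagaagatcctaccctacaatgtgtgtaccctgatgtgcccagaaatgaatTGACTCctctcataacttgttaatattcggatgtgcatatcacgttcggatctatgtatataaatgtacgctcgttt
The match lies 177 to 172 bases before the start codon. TGACTC, on either strand, was in 9 of 12 purine genes, in 33 of the 168 long ORFs at least 2-fold lower (19.6%), in 6.02% of those at least 2-fold higher and in 8.21% of all.

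One-carbon genes, which feed purine synthesis and share Bas1 as activator, were mixed: 3 of 8 were at least 1.5-fold lower and 1 higher. GCV1, a subunit of glycine decarboxylase, stood at 162 and 52.7 FPKM (-1.61), SHM2, cytosolic serine hydroxymethyltransferase, at 1292 and 533 (-1.27) and MTD1 at 455 and 267 (-0.77). GCV3, another subunit of the same decarboxylase, was higher (91.5 and 486, 2.40), as in the other mutants (631 to 662). The mitochondrial form SHM1 stood at 323 and 339 (0.07). Pyrimidine synthesis did not follow: of 11 genes none was 1.5-fold lower and 1, URA10, was higher (20.3 and 41.4, 1.00), with URA2 at 61.7 and 57.1 (-0.11).

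Leucine, isoleucine and valine synthesis was lower at many steps. Leu3 activates its targets when the leucine precursor alpha-isopropylmalate accumulates. Of 14 genes, 8 were lower by 1.5-fold or more and none was higher (median -0.75). LEU1, the enzyme that follows on that precursor, stood at 472 FPKM in WT, 72.01 in arp5d, 70.3 in ies6d, 64.8 in ino80d and 67.8 in arp8d. The 4 mutants lay close together, far below WT (-2.70 in arp5d). OAC1, a mitochondrial carrier, stood at 385 and 61.995 FPKM (-2.62), the transaminase gene BAT1 at 1254 and 335 (-1.90), LEU9 at 175 and 49.8 (-1.79), ILV3 at 798 and 281 and ILV5 at 1745 and 749 (-1.22). BAT2 (372 and 309, -0.27), LEU4 (221 and 176, -0.33), ILV1 (315 and 278, -0.18) and the activator gene LEU3 itself (40.5 and 49.1, 0.27) were less than 1.5-fold from WT. All 4 mutants carry LEU2, the step after LEU1, and WT does not, so a working LEU2 and the loss of an INO80 subunit cannot be told apart in these values. The region 300 to 101 bases before the start codon of LEU1 (sacCer3, chrVII:478753-478952, minus strand, written on the strand of the gene) is shown because it holds a Leu3 site, CCGG and CCGG with 2 bases of any kind between them (capitals):
LEU1: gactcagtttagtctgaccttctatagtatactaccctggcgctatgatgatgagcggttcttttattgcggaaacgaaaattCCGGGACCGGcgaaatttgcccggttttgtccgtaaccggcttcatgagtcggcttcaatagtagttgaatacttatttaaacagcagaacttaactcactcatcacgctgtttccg
The match lies 217 to 208 bases before the start codon. The site, searched on both strands, was in 2 of the 14 genes of the list and in 9 of all 5383 windows (0.167%).

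Lysine genes were lower in 5 of 10 cases, and none was higher (median -0.58). LYS9, the saccharopine reductase gene, stood at 216 FPKM in WT, 40.1 in arp5d, 36.8 in ino80d, 70.3 in ies6d and 125 in arp8d. LYS20, a homocitrate synthase gene with the near copy LYS21, stood at 264 in WT, 116 in arp5d, 69.6 in ino80d, 169.8 in ies6d and 179.7 in arp8d. For both, arp5d and ino80d were the lowest strains, and these are the 2 strains with almost no LYS2 RNA. LYS12 (432 and 235 FPKM, -0.88) and LYS1 (70.1 and 34.1, -1.02) were lower as well. The activator LYS14 stood at 34.2 and 28.7 (-0.25). Whether these values go with LYS2 or with ARP5 was not tested.

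Other amino acid pathways were nearer to WT. Of 31 genes for arginine, histidine, aromatic and threonine-family synthesis, 8 were lower by 1.5-fold or more and none was higher (median -0.18), although 21 of them carry TGACTC (67.7%). HIS4 was lowest (213 and 79.7 FPKM, -1.41), then HIS5 (213 and 111, -0.94) and the arginine route gene CPA1 (201 and 109.9, -0.87). GCN4, whose product activates amino acid synthesis and is controlled by translation, stood at 1890.5 and 1812 FPKM (-0.06). Serine synthesis genes SER2 (278 and 131, -1.08) and SER1 (562 and 316, -0.83) were lower. Sulfate and methionine genes had 4 of 25 higher and 2 lower (median 0.13), beside 13.3% higher and 10.9% lower over all features. MET3, the first enzyme of sulfate use, stood at 35.8 and 61.6 FPKM (0.77), and the 2 lower ones were the regulators CBF1 (94.1 and 54.1, -0.79) and MET31 (108 and 70.03, -0.62).

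**Figure D4:**
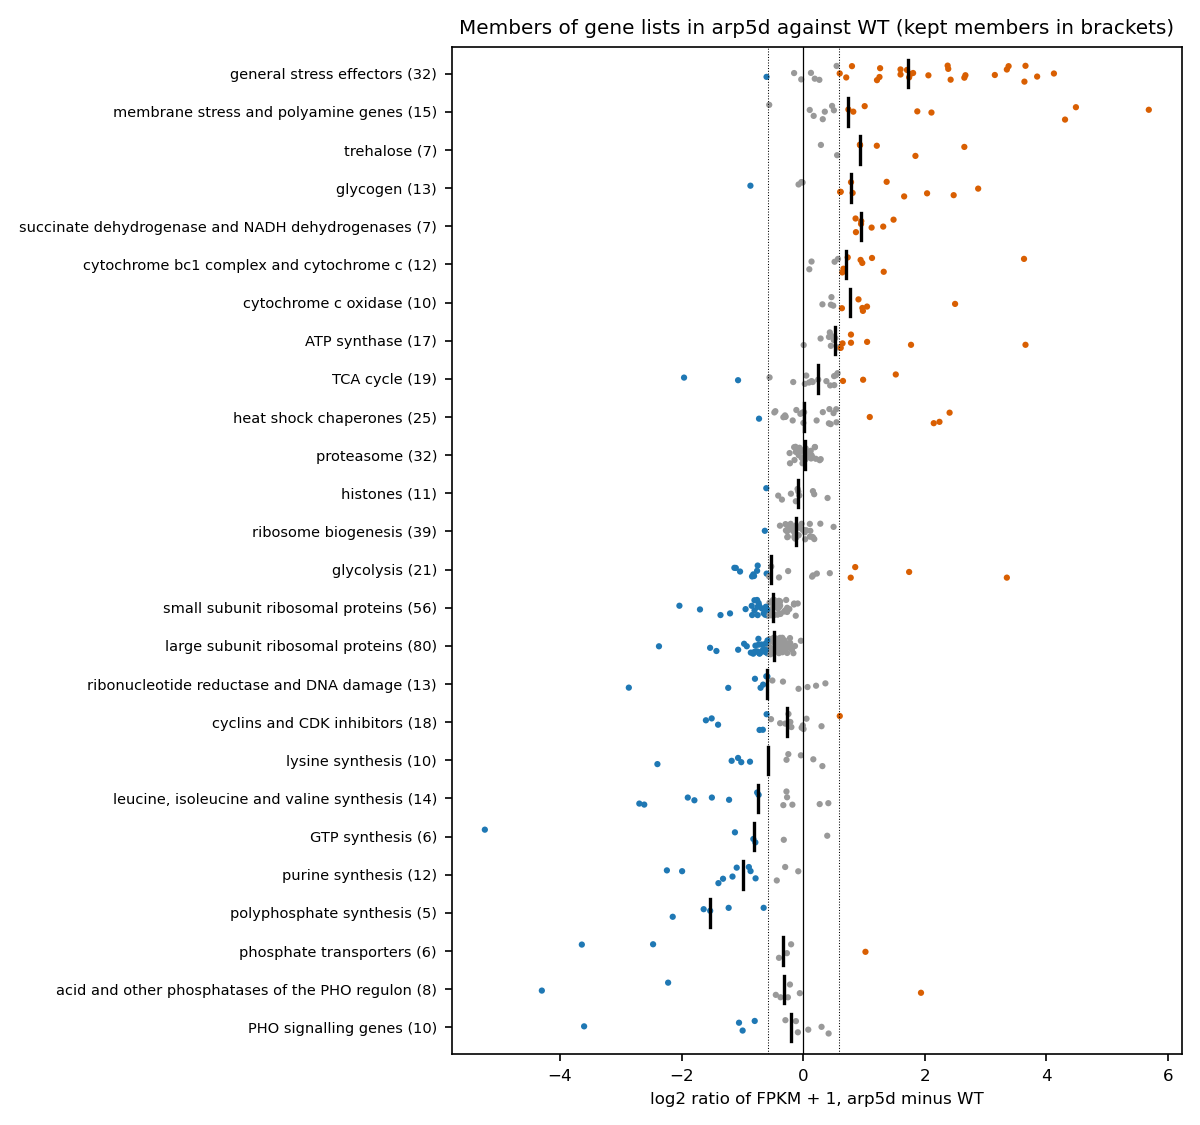
Each point is 1 kept member of a gene list, with the log2 ratio of FPKM + 1, arp5d minus WT, on the x axis and the list with its number of kept members on the y axis; black bars are medians, dotted lines mark 1.5-fold, and orange and blue points are at least 1.5-fold higher and lower. Medians run from 1.72 for general stress effectors to -1.53 for polyphosphate synthesis.

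Of 13 kept genes for ribonucleotide reductase and DNA damage, 7 were lower by 1.5-fold or more and none was higher (median -0.59). HUG1, an inhibitor of the enzyme that is strongly induced by replication stress, stood at 983 FPKM in WT, 134 in arp5d, 99.9 in ies6d, 76.2 in ino80d and 164 in arp8d. WT was far above all 4 mutants (log2 ratio of arp5d -2.87). The subunit genes RNR4 (834 and 354 FPKM, -1.23), RNR1 (212 and 122, -0.79) and RNR2 (306 and 193, -0.66) and the kinase DUN1, which induces them (33.8 and 20.4, -0.70), were lower too. RNR3, the subunit induced by damage, was under the filter (7.12 and 4.52). RAD54, a gene of recombination repair, stood at 21.8 and 20.6 (-0.08).

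Among 18 cyclin and cyclin-kinase genes, 6 were at least 1.5-fold lower and 1 higher (median -0.27). CLB1, a mitotic cyclin, stood at 93.03 and 29.997 FPKM (-1.60), CLB6, an S-phase cyclin, at 16.6 and 5.202 (-1.51) and CLN1, a G1 cyclin, at 117 and 43.9 (-1.40). These lower cyclins thus belong to different phases. Other cyclins, CLB5 (34.003 and 28.6, -0.24), CLB3 (0.01) and CLN3 (-0.03), were near WT. The inhibitor SIC1 was higher (188 and 285, 0.60). Of 20 replication genes, 4 were lower and none higher (median -0.23), with ORC1 at 35.4 and 18.2 FPKM (-0.93) and RFA2 at 215 and 134 (-0.67). Of 11 histone genes, HTA2 alone passed 1.5-fold (3169 and 2079 FPKM, -0.61), and its near copy HTA1 stood at 4052 and 3830.2 (-0.08).

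The labelled mating type held. All 7 a-specific genes were expressed, led by MFA1 at 203133 FPKM in WT and 476819 in arp5d (1.23). MFA2 stood at 101730 and 114070 FPKM (0.17), the alpha-factor receptor STE2 at 954 and 806 (-0.24), the pheromone exporter STE6 at 85.5 and 95.4 (0.16), the protease BAR1 at 198 and 185 (-0.09), the agglutinin AGA2 at 998 and 1281 (0.36) and ASG7 at 25.7 and 42.4 (0.70). The 4 genes of the opposite mating type were at low levels, and none was listed at 0. Their FPKM summed to 67.3 in WT and 156 in arp5d, and to 103 to 158 in the other mutants, beside 307124 and 593298 for the a-specific genes. MF(ALPHA)1 and STE3 were under 5 FPKM in WT and passed the filter through the mutants, in which they were higher, so no count is given. MF(ALPHA)1, which encodes alpha-factor, stood at 1.69 and 41.5 FPKM (3.98), MF(ALPHA)2 at 32.8 and 65.4 (0.97), the a-factor receptor STE3 at 4.89 and 13.5 (1.30) and the agglutinin SAG1 at 27.9 and 35.7 (0.35). MF(ALPHA)1 was also above WT in ies6d (37.8), ino80d (34.5) and arp8d (19.8). Haploid genes were mixed: the kinase FUS3 stood at 133 and 25.3 FPKM (-2.35) and HO at 76.7 and 21.7 (-1.77), whereas the G protein genes STE4 (173 and 127, -0.45), STE18 (325 and 493, 0.60) and GPA1 (115 and 96.03, -0.26) and the scaffold STE5 (30.02 and 35.4, 0.23) were nearer to WT. In the pheromone response list 4 of 18 were higher and 2 lower. FUS1, a gene of cell fusion, stood at 22.3 and 54.3 FPKM (1.24), and PRM4 at 63.6 and 23.96 (-1.37).

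Meiotic genes, which haploid yeast on rich medium normally keeps off, were low in both strains. Several passed the filter on the mean over 5 strains through the mutants, in which they were higher, so no count over the list is given. REC8, the meiotic cohesin, stood at 1.28 and 7.68 FPKM (1.93), SPR3 at 1.25 and 7.02 (1.83), SPS1 at 3.49 and 13.6 (1.70), SPO11, which makes the breaks of recombination, at 6.93 and 21.9 (1.53) and DMC1 at 10.8 and 28.3 (1.31). The master regulator IME1 (22.2 and 18.03, -0.28) and the repressor UME6 (29.5 and 20.8, -0.49) were not higher. At levels this low the pseudocount of 1 narrows the ratios.

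TIR1, a cell wall mannoprotein of cold and low oxygen, stood at 239.5 FPKM in WT, 12.2 in arp5d, 10.8 in ies6d, 9.78 in ino80d and 30.5 in arp8d. All mutants were far below WT (-4.18 in arp5d), but its neighbour in function TIR2 was higher (33.8 and 76.9, 1.16). Of 8 kept hypoxic cell wall mannoprotein genes, 4 were lower and 1 higher, with TIR3 at 92.9 and 26.1 FPKM (-1.80). Of 12 other hypoxic genes, 4 were lower and 1, CYC7, higher, and ANB1 stood at 203 and 74.04 (-1.44, near copy HYP2). Iron uptake genes had 6 of 19 lower and 1, HMX1, higher (median -0.38): the siderophore carriers ARN2 (148 and 57.1, -1.36) and ARN1 (95.8 and 40.01, -1.24) were lowest, and FET3, the iron oxidase, stood at 431 and 365 (-0.24). Ergosterol synthesis had 4 of 23 lower and 1 higher (median -0.27), with ERG1 at 544 and 227 FPKM (-1.26), ERG11 at 817 and 458 (-0.83) and ERG12 at 117 and 182 (0.63). INO1, the inositol synthesis gene from which INO80 takes its name, was low in both strains (6.61 and 8.54, 0.33). Of 14 phospholipid genes 2 were lower, OPI3 (212 and 106) and CPT1 (139 and 77.5, -0.84), beside 10.9% over all features.

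Of the 15 lowest long ORFs, 2 others were YDR476C, at 133 and 23.7 FPKM (-2.44), and CIS1, at 105 and 20.6 (-2.29), for which no list was set. By position, of the 90 long ORFs that lie 10000 to 20000 bases from an end, 22.2% were at least 2-fold higher and 8.89% lower (median 0.27), against 4.41% and 2.93% of the 4853 that lie 50000 bases or more inside. The 42 within 10000 bases had a median of -0.00, with 11.9% higher and 9.52% lower. Among the 238 long ORFs with a mean under 10 FPKM, at any position, 18.9% were higher and 2.94% lower. The filter uses a mean over WT and 4 mutants. Near its limit it keeps genes low in WT and high in the mutants more readily than the reverse. The part of the filter in these shares was not tested. The part of level in the shares near chromosome ends was not tested. COS genes, a subtelomeric family of membrane proteins, were lower in 4 of 7 kept cases and higher in none (median -0.62), with COS9 at 51.6 and 25.7 FPKM (-0.98). A near-identical copy was found for 5 of the 7, and how reads were divided among copies is unknown. In ino80d the same list had a median of -2.17, in ies6d -0.58 and in arp8d -0.15.

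Few features set arp5d apart from every other strain. Over the 6192 features, 6 lay 2-fold or more above each of WT, ies6d, ino80d and arp8d (0.0969%), and 4 lay 2-fold or more below each (0.0646%). At 1.5-fold these were 14 (0.226%) and 8 (0.129%). None of the 6 was a long ORF (0.0%), and 2 of the 4 were (0.0372%). They were 4 short features (YBR200W-A, YHR073W-A, YJL052C-A and YKL096C-B), the spliceosomal RNA SNR6 and the small nucleolar RNA SNR80 (86.7 FPKM in WT, 685 in arp5d, 145 to 285 in the others). Of the 4 that were lower, ARP5 and IMD2 were long ORFs, and the others were YBR196C-B (4652 in WT, 777 in arp5d, 2639.9 to 2797 in the others) and SNR48, listed at 0 in arp5d. All of these names were given after their values were seen, apart from ARP5, IMD2 and SNR48.

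**Figure D5:**
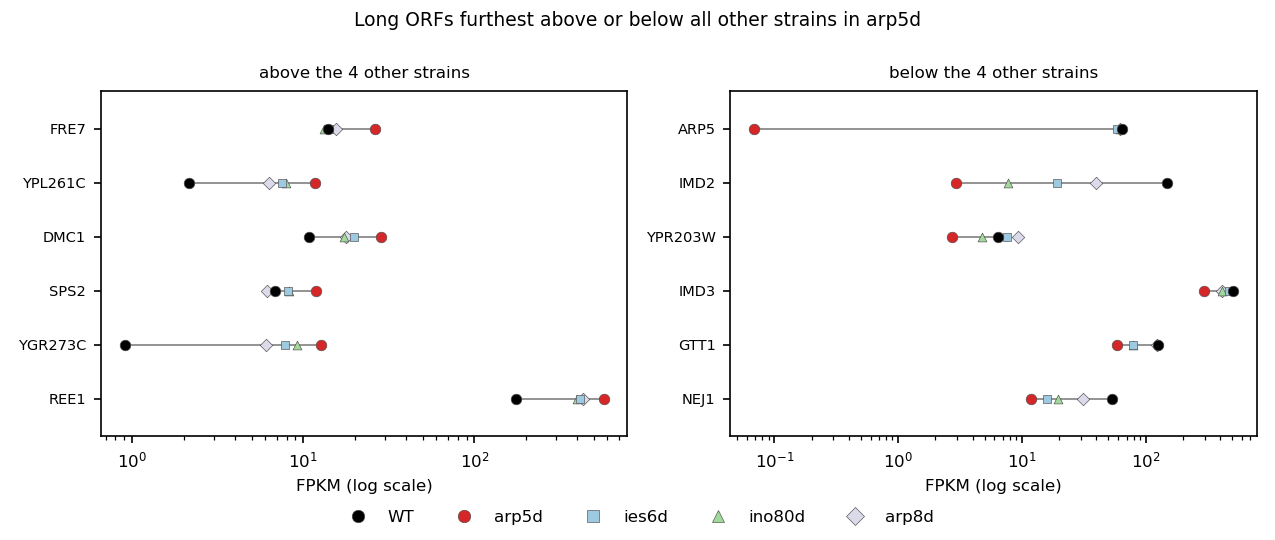
FPKM on a log x axis in the 5 strains for the 6 long ORFs furthest above all other strains in arp5d (left) and the 6 furthest below (right), chosen by that distance. FRE7 stands at 26.2 in arp5d with the others between 13.2 and 15.6, and ARP5 and IMD2 are the 2 that lie at least 2-fold below.

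The long ORFs furthest above the rest were FRE7, a metal reductase gene (26.2 FPKM in arp5d, 13.2 to 15.6 elsewhere), YPL261C, the recombinase gene DMC1 (28.3 against 10.8 to 19.8), SPS2, YGR273C and REE1 (569 against 175 in WT and 399.6 to 434 in the other mutants). Those furthest below, after ARP5 and IMD2, were YPR203W, IMD3, the glutathione transferase gene GTT1 (58.2 against 78.4 to 125) and NEJ1, a regulator of end joining (11.8 in arp5d, 53.8 in WT, 15.95 to 31.1 in the other mutants).

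Set directly against ies6d, whose product is the partner of Arp5, arp5d had 6 of 5383 long ORFs higher by 2-fold or more (0.111%) and 9 lower (0.167%). The SD of this log2 difference over long ORFs was 0.248, against 0.64 for arp5d minus WT. It was not computed against ino80d or arp8d, so a closeness particular to ies6d is not shown. The 6 were IES6, TKL2 (22.9 in arp5d, 9.41 in ies6d, 19.02 in ino80d), YBR032W, YEL014C, YGL149W and YIR020C. The 9 were ARP5, LYS2, IMD2, the stress genes HSP12 (1638 and 3477), SPI1 (421 and 852) and CYC7 (83.9 and 189), and YLR255C, YOR314W and YPR203W. Over the general stress list the medians against WT were 1.72 in arp5d, 2.49 in ies6d, 1.53 in ino80d and 1.76 in arp8d, and over the 46 respiratory genes 0.70, 0.97, 0.84 and 0.54. These comparisons share the same WT values.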

How the data were processed

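Poly(A) RNA of 5 yeast strains was made into libraries with the unstranded TruSeq RNA v2 kit and run on an Illumina HiSeq instrument, per the labels' protocols. The authors deposited FPKM values, 1 per feature and strain for 2 biological replicates. TopHat2 and Cuffdiff are named, with sacCer3, in the submitters' processing notes. Tool versions, gene annotation and how library sizes were set are not given in the sources used here. Low values did not resolve into whole fragments, so the depth is unknown and no interval or floor was computed.

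Of 6567 features, 5888 matched a locus tag and 67 a symbol of the RefSeq annotation of R64, which is the sacCer3 assembly, and 612 matched neither. Features with a mean over the 5 strains of at least 5 FPKM were kept (6192). Differences were computed as log2 of FPKM + 1, with no rescaling, in python 3.11.15 with pandas 2.3.3. A ratio with a pseudocount of 1 understates the change of low genes. Features were described by size, 2-fold for single features and 1.5-fold within lists. No p-value was computed. To find near-identical copies, whole spans of matched features, introns included, were aligned by blastn 2.17.0 (90% identity over 50% of the length). Motifs were searched on both strands in the 300 bases before each start codon. Named genes were the 15 highest and 15 lowest long ORFs, the 5 highest and 5 lowest other features, up to 6 members of each of 58 gene lists with the largest ratios (4 in lists over 40), members at least 1.5-fold against their list's median, INO80 subunits, markers, neighbours of ARP5, mating-type genes, and the 6 long ORFs furthest above and below all other strains. Other list members are named for contrast. The members and lists were chosen with earlier results of these data known. The steps were tested on simulated data. Some genes covered by the rule are not reported here. Alternatives on the pseudocount, filter, centring, threshold, feature set and chromosomes are given at the end.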

Additional observations from a re-analysis of the deposited data

How the results depend on the processing

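No paired analysis was possible because each strain has 1 column and no test was made, and no replicate could be left out. Against 399 higher and 223 lower features, a 1.5-fold threshold gave 825 and 677, and all other alternatives stayed within 1.5 times. Of the features apart from all 4 other strains, 6 higher and 4 lower became 14 and 8 at 1.5-fold, and 0 and 2 among long ORFs alone. These alternatives for that count were chosen after seeing the data, and centring was not run for it. Of 58 list medians, 2 moved by more than 1.5-fold: pyruvate decarboxylases and alcohol and aldehyde dehydrogenases from -0.04 to -0.66 with a mean of at least 20 FPKM, and phosphate transporters from -0.33 to -1.43 without chromosomes I, III and XI. In both cases fewer genes entered the median. None changed direction at 1.5-fold. Of 387 named genes, 29 moved by more than 1.5-fold, 16 with a pseudocount of 0.1 FPKM and 28 with 5 FPKM. Centring removed a median of -0.02. Values of features near the filter and the size of changes in low genes are limited by the unknown depth.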

Other observations

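Small noncoding RNAs without poly(A) tails differed more from WT than ORFs did. Of 48 small nucleolar RNAs, which guide modification of ribosomal RNA, 33 were at least 1.5-fold higher in arp5d and 5 lower, with a median log2 ratio of 1.02. SNR128 stood at 1825 and 14660.2 FPKM (3.01) and SNR86 at 123 and 1308 (3.40), while SNR190 stood at 664 and 49.8 (-3.71). Several were listed at 0 in either WT or arp5d: SNR69 at 0 in WT and 6939 in arp5d, SNR60 at 0 and 1041, SNR87 at 0 and 604, and SNR64 at 3419.98 in WT and 0 in arp5d. The telomerase RNA TLC1 stood at 245 and 884 FPKM (1.85), the RNase MRP RNA NME1 at 26.8 and 67.02 (1.29), the RNase P RNA RPR1 at 36.9 and 89.5 (1.26) and SCR1 of the signal recognition particle at 209 and 300.2 (0.52). Poly(A) selection precedes these values, and the part of selection or fragment size in them was not tested. These RNAs were named after their values were seen, apart from those in the rule.

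Short ORFs also spread widely. Of 250 annotated ORFs under 300 bp, 17.6% were at least 2-fold higher and 7.2% lower (median 0.11), and of 42 kept features listed at 0 in some strain, 30 were at least 2-fold apart. YER053C-A was listed at 0 in WT and at 3754 FPKM in arp5d. YMR230W-A stood at 59.8 and 3.62.

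Fatty acid genes of the peroxisome had 6 of 17 members at least 1.5-fold higher and 1 lower (median 0.30), with CAT2, carnitine acetyltransferase, at 7.86 and 17.02 FPKM (1.02) and PIP2, an activator of these genes, at 15.9 and 27.7 (0.77). Cell wall integrity genes had 3 of 15 higher and 2 lower (median 0.30), beside 13.3% higher and 10.9% lower over all features. PST1 stood at 98.3 and 372 FPKM (1.91) and PIR3 at 12.7 and 28.2 (1.10), whereas GAS1 stood at 1654 and 1065 (-0.64) and CIS3 at 1491 and 808 (-0.88). Of 7 galactose genes, GAL7 alone passed 1.5-fold (4.15 and 13.1, 1.45), with GAL1 at 8.01 and 5.83 (-0.40).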
